A study of Rattus norvegicus with 12 samples.

Results

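The genes described here encode the proteins of the mitochondrial ribosome, taken as every gene whose symbol starts with Mrpl or Mrps followed directly by a number. There were 76 of them among 20152 genes listed for rat dorsal root ganglia, the clusters of sensory neuron cell bodies and their supporting cells beside the spinal cord. Of these, 46 carried an Mrpl symbol, for the large subunit, and 30 an Mrps symbol, for the small subunit. All 76 were listed in each of the 12 libraries, and 75 passed the filter on low counts and were tested among 15809 genes. The gene set aside was Mrps21l. Symbols written in lower case in the files, mrpl9, mrpl11 and mrpl24, fell outside the rule.

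Total RNA of ganglia was sequenced from 3 groups of rats with 4 libraries each. The paclitaxel group received paclitaxel, a microtubule-stabilising drug, by intraperitoneal injection at 2.0 mg/kg, from a DMSO stock diluted in saline. The oxaliplatin group received oxaliplatin, a platinum drug that forms DNA adducts, intraperitoneally at 2.4 mg/kg in a glucose solution. The vehicle group is 1 group for both drugs, and the sources used here do not say which of the 2 solvents it received, nor strain, age, day of collection or whether libraries came from separate animals, so each p-value reflects how far these libraries vary, which may be technical variation.

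The mitochondrial ribosome sits in the mitochondrial matrix and translates the few messenger RNAs of the mitochondrial genome, which code for core subunits of the respiratory chain and of ATP synthase. Its RNA comes from the mitochondrial genome, whereas all of its proteins are encoded in the nucleus, made in the cytosol and imported. Compared with its bacterial ancestor it has lost RNA and gained proteins, so that a mammalian mitoribosome holds counterparts of bacterial proteins and proteins with no bacterial relative. By the unified nomenclature, 43 of the 76 genes had a bacterial counterpart, 31 were specific to mitochondria and 2, Mrps36 and Mrps21l, were not classed. The symbols are older than the structures: Mrps18a and Mrps30 are placed in the large subunit in mammalian structures, and Mrps36 is named Kgd4 in the RefSeq table, after its role in the 2-oxoglutarate dehydrogenase complex of the citric acid cycle. Neurons depend on oxidative phosphorylation, and both drugs are known to disturb axonal mitochondria in models of painful neuropathy.

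Promoter windows from RefSeq (GRCr8) were at hand for 61 of the 76 genes, and 4 of them are printed here for the reasons given next. The window between Mrpl46 and Mrps11 is shown because a large-subunit gene and a small-subunit gene face away from each other across 234 bases. Mrpl49 is shown because its start lies 186 bases from that of Fau, whose product contains a protein of the cytosolic ribosome. Mrps36 and Mrps18b are shown as the genes with the smallest p-value in the comparisons of oxaliplatin and of paclitaxel with vehicle. Each is written 5′ to 3′ on the strand of the named gene and ends at the base before its start; capitals mark matches to the motifs searched.
Mrps11, chr1:142117031-142117263, plus strand: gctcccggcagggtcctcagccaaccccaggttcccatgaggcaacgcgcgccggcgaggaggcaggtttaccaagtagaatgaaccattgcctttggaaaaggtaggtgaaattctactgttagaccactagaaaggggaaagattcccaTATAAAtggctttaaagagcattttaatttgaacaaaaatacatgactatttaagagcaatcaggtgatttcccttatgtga
Mrpl49, chr1:212779328-212779512, minus strand: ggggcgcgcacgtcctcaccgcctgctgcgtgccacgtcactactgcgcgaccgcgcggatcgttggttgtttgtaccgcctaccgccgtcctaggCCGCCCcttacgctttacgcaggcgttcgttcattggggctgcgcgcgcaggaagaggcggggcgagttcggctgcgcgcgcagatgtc
Mrps36, chr2:33612398-33612647, minus strand: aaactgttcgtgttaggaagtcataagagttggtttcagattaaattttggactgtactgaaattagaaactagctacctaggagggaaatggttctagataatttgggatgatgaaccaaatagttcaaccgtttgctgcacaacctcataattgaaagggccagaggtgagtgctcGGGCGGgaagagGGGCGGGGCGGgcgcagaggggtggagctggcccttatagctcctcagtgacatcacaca
Mrps18b, chr20:2842756-2843005, plus strand: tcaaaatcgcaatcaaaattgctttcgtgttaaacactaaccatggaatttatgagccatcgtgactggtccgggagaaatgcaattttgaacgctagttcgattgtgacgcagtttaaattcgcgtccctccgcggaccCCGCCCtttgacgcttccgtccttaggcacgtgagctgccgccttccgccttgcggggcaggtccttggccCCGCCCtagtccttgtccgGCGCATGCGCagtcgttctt
The capitals in Mrps11 are a TATA box, those in Mrpl49 and Mrps36 are GC boxes, and those in Mrps18b are 2 GC boxes and, near the start, the core motif of NRF1, an activator of many nuclear genes for mitochondrial proteins.

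The motifs were searched as exact letters on both strands of the 250 bases before the start. The NRF1 core GCGCATGC was in 5 of the 61 windows, or 8.2%, against 2.48% of the windows of 27457 genes. The 5 were those of Mrpl17, Mrpl22, Mrpl32, Mrpl44 and Mrps18b. The ETS core CCGGAAG, the letters bound by GABPA, was in 13 windows, or 21.3%, against 8.11%. The GC box GGGCGG was in 28 windows, or 45.9%, against 33.5%, and the TATA box TATAAA in 8, or 13.1%, against 14.1%. The YY1 motif AAGATGGCG was in 1 of the 61, or 1.64%, against 0.768%. The 27457 genes were not limited to those tested in the ganglia. These are descriptions of letters in a window and not of binding.

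Of the 61 genes with a window, 18 had the start of a gene of the opposite strand, facing away, within 1000 bases. The same search was not made for other genes, so no share over all genes stands beside this count. Mrps11 and Mrpl46 were each other's partner. Other partners were Ndufb5, a subunit of respiratory complex I, for Mrpl47, the proteasome gene Psma2 for Mrpl32, and the chaperonin gene Tcp1 for Mrpl18. One partner passed the test in a comparison with vehicle: Ncapd2, a condensin subunit used in dividing cells, whose start lies 50 bases from that of Mrpl51, had a log2 fold change of 0.64 ± 0.14 (SE) in oxaliplatin against vehicle with an adjusted p of 0.0394 in edgeR's quasi-likelihood test. Mrpl51 itself had -0.09 ± 0.09 with an adjusted p of 0.645.

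Levels of different genes were compared as FPKM, a value scaled to transcript length and library size. The median gene had 28.9 FPKM as the mean of the 12 libraries, with 29.8 for Mrpl and 28.2 for Mrps genes. Genes with a bacterial counterpart had a median of 27.8 FPKM and mitochondria-specific genes 30.7 FPKM. At least 10 FPKM was reached by 72 genes and at least 50 FPKM by 16, and the 10 highest held 30.5% of the summed FPKM. The proteins join the ribosome as single copies with few exceptions, such as the stalk protein of Mrpl12. RNA levels of the family ran from 0.5 to 125.9 FPKM. The lowest was that of Mrps21l, which the filter set aside and the nomenclature did not class, so it may encode no ribosomal subunit. The next lowest, that of Mrpl30, is uncertain, as given below.

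Mrpl17, the counterpart of bacterial L17, was highest, at 131.7 ± 5.70 FPKM in paclitaxel, 120.0 ± 9.74 in oxaliplatin and 125.9 ± 8.85 in vehicle libraries (SD, n = 4 each). Next came the mitochondria-specific Mrpl54, at 91.0 ± 10.2, 104.0 ± 14.1 and 104.9 ± 24.98 FPKM in paclitaxel, oxaliplatin and vehicle libraries, and Mrpl49, at 97.9 ± 5.18, 88.9 ± 4.29 and 104.6 ± 5.52 FPKM. The order of the leading genes was not firm, since the lowest library of Mrpl17, at 108.6 FPKM, lay below the highest of Mrpl54, at 138.5, and of Mrpl49, at 110.7. Mrpl27, whose bacterial counterpart reaches the peptidyl transferase centre, averaged 80.8 FPKM and Mrpl41 79.3 FPKM over all libraries. Mrps21, at 77.2 FPKM, led the Mrps genes.

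At the other end, Mrps21l ranged from 0.2 to 0.9 FPKM, Mrpl30 averaged 1.9, Mrpl40 8.4, Mrps28 9.0 and Mrpl50 11.7 FPKM. The low value of Mrpl30 is uncertain, because its estimated counts were not whole numbers in any of the 12 libraries, so reads shared with other sequences were divided. The same held in more than 6 libraries for 21 of the 76 genes, while 53 had whole counts throughout. The 21 include Mrpl47 and Mrpl51, named above, and Mrpl10, Mrpl33, Mrpl35, Mrpl41, Mrpl43, Mrps15, Mrps21 and Mrps35, named below. RefSeq names 40 pseudogenes of these genes.

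**Figure D1:**
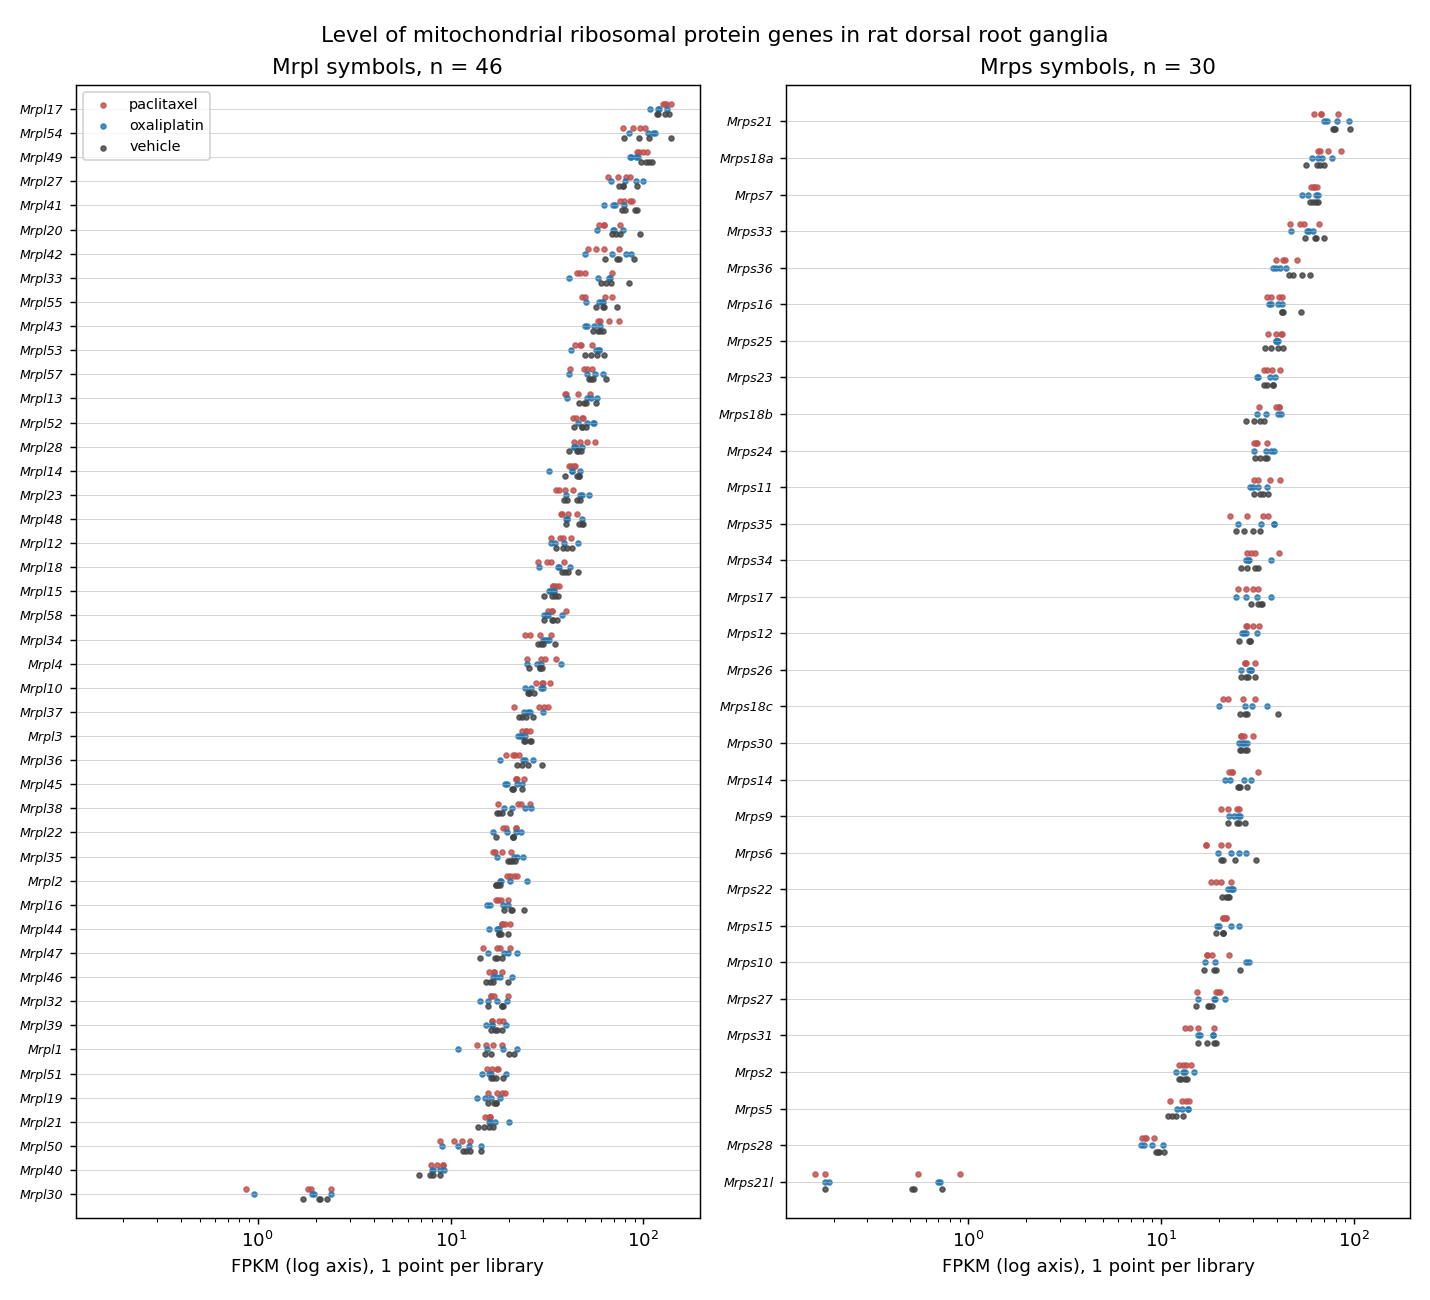
Level of each of the 76 genes in FPKM on a log axis, with 1 point per library and genes ordered by mean level, for Mrpl symbols (left) and Mrps symbols (right). Points of the paclitaxel, oxaliplatin and vehicle libraries lie together for nearly every gene, from Mrpl17 at 125.9 FPKM down to Mrps21l at 0.5 FPKM.

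Summed over the 76 genes, the level was 2660 ± 115 FPKM in paclitaxel, 2700 ± 225 in oxaliplatin and 2787 ± 179 in vehicle libraries (SD, n = 4 each). Vehicle replicate 2 was highest with 3053 FPKM and oxaliplatin replicate 4 lowest with 2432 FPKM, and the groups overlapped. The summed FPKM of Mrps symbols over that of Mrpl symbols was 0.529 ± 0.00704 in paclitaxel, 0.532 ± 0.0167 in oxaliplatin and 0.517 ± 0.0111 in vehicle libraries. With Mrps18a and Mrps30 counted with the large subunit and Mrps36 left out, a placement chosen after seeing the data, the ratio was 0.422 ± 0.0101, 0.432 ± 0.00990 and 0.419 ± 0.00858 in paclitaxel, oxaliplatin and vehicle libraries.

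Replicates of a gene lay close together. The median coefficient of variation of CPM (counts scaled to library size, with edgeR's TMM factors) was 9.66% in paclitaxel, 11.9% in oxaliplatin and 8.91% in vehicle libraries. Over all genes tested it was 13.3%, 13.0% and 10.1%, and over 11725 other genes in the same range of FPKM 11.7%, 11.4% and 8.56%.

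Facts of the whole series bear on the comparisons. Libraries held 17008728 to 17615736 estimated counts, of which the 76 genes took 0.231 to 0.279%. Marker lists of other cells moved with the groups, and their part in the results below was not tested. The 12 neuronal markers, all detected, summed to 18892 to 26417 CPM in paclitaxel, 13376 to 17152 in oxaliplatin and 18397 to 20967 in vehicle libraries. Their edgeR log2 fold change was above 0 for 12 of 12 in paclitaxel against vehicle. There 0 passed the test, against 0.12% of all genes, and 6 had an unadjusted p under 0.05, against 17.1%. The fold change was below 0 for 11 of 12 in oxaliplatin against vehicle, with 2 passing, against 1.76% of all genes. In oxaliplatin against paclitaxel all 12 were below 0. There 6 passed, against 11.3% of all genes, and 11 had an unadjusted p under 0.05, against 29.4%. The 7 erythroid markers summed to 1155 to 2829 CPM in paclitaxel, 4805 to 16241 in oxaliplatin and 2244 to 4339 in vehicle libraries, and the 5 markers of dividing cells to 23.4 to 27.2, 50.7 to 65.7 and 26.5 to 28.4 CPM. The 4 tested adipocyte markers summed to 1.51 to 8.51 CPM in paclitaxel, 13.2 to 43.8 in oxaliplatin and 4.15 to 7.67 in vehicle libraries, and the 10 macrophage markers to 96.5 to 171, 213 to 261 and 192 to 342 CPM. In bulk tissue, fewer cells of a type and less RNA per cell cannot be told apart.

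In paclitaxel against vehicle, the mitoribosome genes scattered around 0. Of the 75 tested, 41 had a log2 fold change above 0 and 34 below, where 52.1% of all genes tested lay below. The family had a median of 0.01 against -0.01 over all genes tested, and that of the members was -0.04, against -0.06 over all genes, when scaled by library size alone. The range was -0.34 to 0.35, and all 75 lay between -0.4 and 0.4, as did 86.6% of all genes tested. An adjusted p under 0.05 was reached by 0 of the 75, against a background of 0.12% of all genes (edgeR's quasi-likelihood test, Benjamini-Hochberg adjustment over 15809 genes). At an unadjusted p under 0.05 there were 5, against 17.1% of all genes. DESeq2 also called 0, against 1.18% of all genes it tested, and limma voom called 3, against 12%.

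The 95% interval of the fold change lay inside -0.5 to 0.5 for 63 of the 75 genes and inside -1 to 1 for all 75, so a change beyond 2-fold lay outside the interval of each tested gene. The widest reach was down to -0.70, for Mrpl33.

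The members with the smallest p-values on the higher side belonged to several places in the ribosome. Mrps18b (gene ID 294230), 1 of 3 mammalian relatives of bacterial S18, had 45.2, 43.8, 42.8 and 33.5 CPM in paclitaxel libraries, against 31.3, 29.2, 35.2 and 33.8 CPM in vehicle libraries. Paclitaxel replicates 1 to 3 were above every vehicle library, and replicate 4 lay within the vehicle range. The log2 fold change was 0.35 ± 0.12 (SE) with an adjusted p of 0.218.

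Mrpl10 (gene ID 691075), which anchors the Mrpl12 stalk where translation factors bind, had 59.0, 52.6, 52.4 and 47.0 CPM in paclitaxel libraries, against 42.1, 46.1, 43.1 and 42.8 CPM in vehicle libraries. The groups did not overlap, by a margin under 1 CPM at the nearest pair. The log2 fold change was 0.28 ± 0.09 with an adjusted p of 0.218. Mrpl12 itself, named here only as the partner of Mrpl10, averaged 60.6 ± 7.61 CPM in paclitaxel and 60.5 ± 5.37 CPM in vehicle libraries (SD, n = 4 each).

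Mrpl2 (gene ID 301240), a counterpart of the bacterial protein L2 beside the peptidyl transferase centre, had 21.6, 22.7, 22.0 and 19.6 CPM in paclitaxel libraries, against 16.9, 18.2, 17.5 and 17.2 CPM in vehicle libraries. The groups did not overlap. Its log2 fold change was 0.30 ± 0.11 with an adjusted p of 0.239. The mitochondria-specific Mrpl38 had 37.9, 32.7, 31.5 and 24.2 CPM in paclitaxel libraries, against 24.5, 24.1, 27.8 and 25.2 CPM in vehicle libraries, and its log2 fold change was 0.31 ± 0.14 with an adjusted p of 0.273. Again paclitaxel replicate 4 lay within the vehicle range. By p-value, Mrpl28 and Mrps18a followed with log2 fold changes of 0.19 and 0.23 and adjusted p of 0.309 and 0.317.

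The smallest p-value on the lower side was that of Mrpl18, at -0.27 ± 0.12 with an adjusted p of 0.282. Mrpl33 (gene ID 100363539), with the shortest transcript of the 75 tested, had 22.3, 23.7, 22.6 and 32.1 CPM in paclitaxel libraries, against 29.4, 39.3, 27.8 and 31.3 CPM in vehicle libraries. Paclitaxel replicates 1 to 3 were below every vehicle library, and replicate 4 was above 3 of them. Its log2 fold change was -0.34 ± 0.17 with an adjusted p of 0.308. Mrps36, Mrps6, Mrpl20 and Mrps21 had values of -0.19, -0.28, -0.23 and -0.20, each with an adjusted p above 0.3.

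Paclitaxel and vehicle libraries did not overlap in CPM for 4 members, against 6.96% of all genes tested. Besides Mrpl10 and Mrpl2 these were Mrps15, named after its values were seen, at 0.10 ± 0.09, and Mrps28, at -0.17 ± 0.12 with 5.99, 5.87, 5.62 and 6.27 CPM in paclitaxel libraries, against 6.59, 6.61, 7.04 and 6.43 CPM in vehicle libraries. Their adjusted p were 0.567 and 0.468.

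One library weighed on this comparison. Without paclitaxel replicate 4, 4 members had an adjusted p under 0.05, all higher: Mrps18b at 0.44 ± 0.11 with 0.0309, Mrpl37, named after its values were seen, at 0.38 ± 0.10 with 0.0387, Mrpl10 at 0.33 ± 0.09 with 0.0425 and Mrpl38 at 0.42 ± 0.12 with 0.0469. The number of all genes called then was 1631, or 10.2%, against 19 with that library, so that the members' 4 of 75 lay below the share over all genes. Its neuronal score (mean log2 CPM of the markers minus the vehicle mean) was 0.02, against 0.17 to 0.35 in the other paclitaxel libraries. The same score of other lists also set it apart from them. It was 0.09 against -0.58 to -0.37 for satellite glia and -0.15 against -0.75 to -0.53 for fibroblasts. For cytosolic ribosomal proteins it was -0.01 against -0.43 to -0.29. The part of these differences in the calls was not tested.

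**Figure D2:**
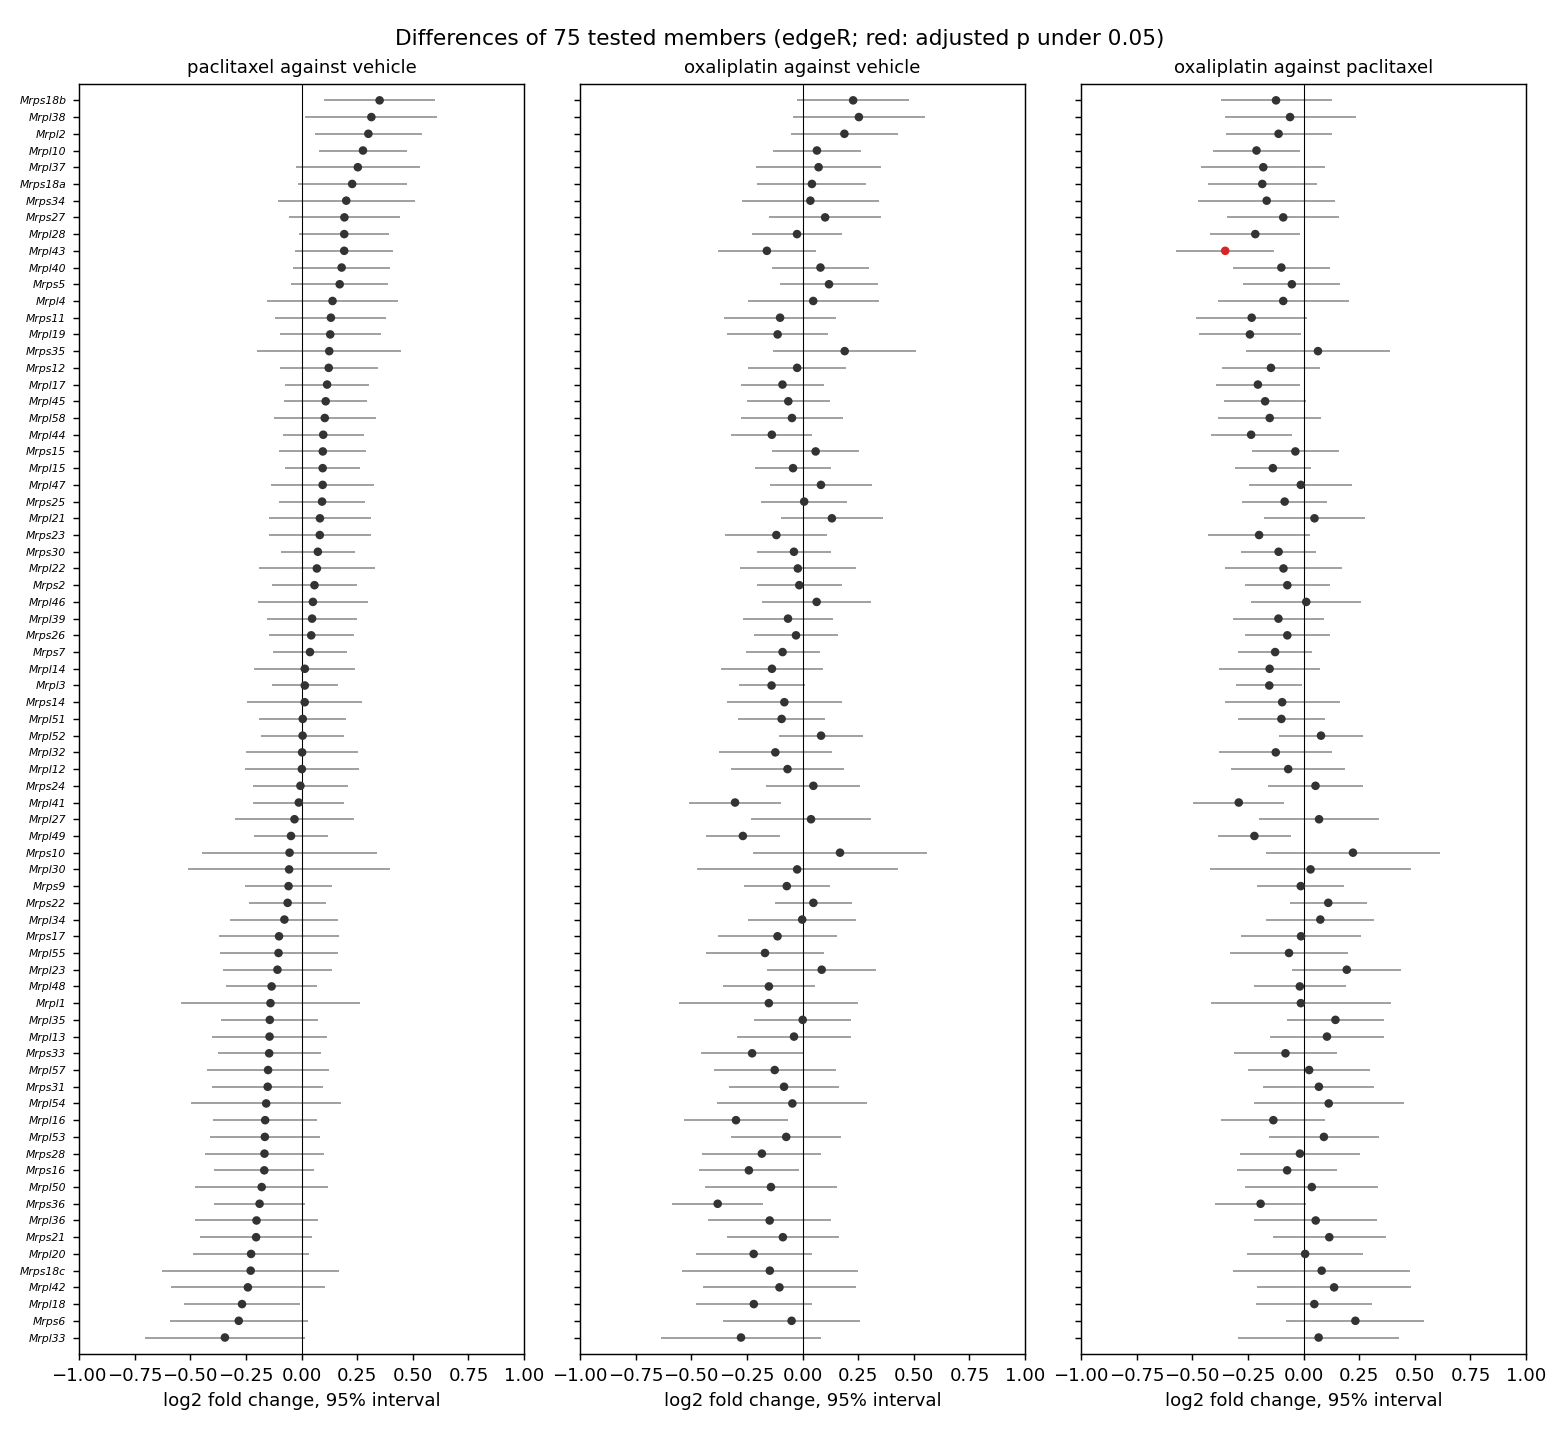
Log2 fold change (points) with 95% interval (lines) of the 75 tested members in paclitaxel against vehicle, oxaliplatin against vehicle and oxaliplatin against paclitaxel, ordered by the left panel; red marks an adjusted p under 0.05. All points lie within 0.4 of 0 and the red point is Mrpl43 at -0.35 in the right panel.

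In oxaliplatin against vehicle, more of the genes lay below 0 than above. Of the 75, 51 had a log2 fold change below 0 and 24 above, where 48.3% of all genes tested lay below 0. The median was -0.06 against 0.01 over all genes tested, and -0.03 against 0.04 when scaled by library size alone. The Mrpl genes had 33 of 46 below 0 with a median of -0.07, and the Mrps genes 18 of 29 with a median of -0.04. Genes with a bacterial counterpart had 31 of 43 below 0 and mitochondria-specific genes 19 of 31.

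The size of this tilt moved with single libraries. The member score, the mean log2 CPM of the 75 genes minus the vehicle mean, was 0.08, 0.03, -0.13 and -0.21 in the oxaliplatin libraries, against -0.05, 0.12, -0.05 and -0.02 in the vehicle libraries. The groups overlapped, with oxaliplatin replicate 4 lowest and vehicle replicate 2 highest. The median log2 fold change was -0.03 without oxaliplatin replicate 4 and -0.02 without vehicle replicate 2, but -0.10 without oxaliplatin replicate 1, and -0.09 both without oxaliplatin replicate 2 and without vehicle replicate 3.

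An adjusted p under 0.05 was reached by 0 of the 75 genes, against a background of 1.76% of all genes tested (edgeR), and an unadjusted p under 0.05 by 5, against 17.2% of all genes. DESeq2 called 3 members, against 4.5% of all genes it tested, and limma voom 0, against 3.58%. The range of log2 fold changes was -0.38 to 0.25, so all 75 lay between -0.4 and 0.4, as did 87.3% of all genes tested. The 95% interval lay inside -0.5 to 0.5 for 66 genes and inside -1 to 1 for all 75.

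Mrps36 (gene ID 294696), whose promoter is printed above with its row of GC boxes and whose product is better known as a subunit of 2-oxoglutarate dehydrogenase, had the lowest value. It had 35.6, 39.3, 36.0 and 33.5 CPM in oxaliplatin libraries, against 41.4, 54.1, 43.8 and 48.9 CPM in vehicle libraries. The groups did not overlap. The log2 fold change was -0.38 ± 0.10 with an adjusted p of 0.0620 in edgeR and 0.00719 in DESeq2, and it ran from -0.50 to -0.31 over 19 alternative settings.

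Mrpl49 (gene ID 309176), a mitochondria-specific large-subunit protein, had 44.4, 46.2, 46.9 and 42.6 CPM in oxaliplatin libraries, against 53.1, 58.2, 50.5 and 55.3 CPM in vehicle libraries. The groups did not overlap. The log2 fold change was -0.27 ± 0.08 with an adjusted p of 0.0954 in edgeR and 0.0188 in DESeq2. Fau, on the other side of the stretch printed above, had -0.01 ± 0.14 with an adjusted p of 0.974.

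Mrpl41 (gene ID 296551), also mitochondria-specific, had 56.0, 48.3, 48.3 and 42.5 CPM in oxaliplatin libraries, against 56.3, 64.9, 54.6 and 64.9 CPM in vehicle libraries. Oxaliplatin replicate 1 lay within the vehicle range and the other 3 below it. Its log2 fold change was -0.30 ± 0.10 with an adjusted p of 0.122 in edgeR and 0.0493 in DESeq2. Mrpl16, the counterpart of a bacterial protein close to the A-site tRNA, had -0.30 ± 0.11 with an adjusted p of 0.176.

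Mrps16 and Mrps33 had log2 fold changes of -0.24 ± 0.10 and -0.23 ± 0.11, with adjusted p of 0.253 and 0.302. Libraries of the 2 groups did not overlap for 3 members, all lower in oxaliplatin, against 5.76% of all genes tested in that direction. The third was Mrpl44, related to RNase III, with 21.0, 20.6, 18.2 and 20.7 CPM in oxaliplatin libraries, against 21.2, 21.6, 21.9 and 23.9 CPM in vehicle libraries, and a log2 fold change of -0.14 ± 0.08 with an adjusted p of 0.435.

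On the higher side, Mrps18b had 43.5, 32.1, 35.2 and 40.9 CPM in oxaliplatin libraries, against 31.3, 29.2, 35.2 and 33.8 CPM in vehicle libraries. Its log2 fold change was 0.23 ± 0.12 with an adjusted p of 0.339. Mrpl38 stood at 0.25 ± 0.14 with 0.370. Both groups overlapped for these genes. Mrpl2, Mrps35, Mrpl21 and Mrps5 had values of 0.19, 0.19, 0.13 and 0.12.

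With the neuronal score of each library as a covariate, 7 members passed the test in oxaliplatin against vehicle: Mrps36, Mrpl33, Mrps33, Mrpl18 and Mrpl50 lower, Mrpl38 and Mrps18b higher, with log2 fold changes from -0.66 to 0.57. The number of all genes called with that covariate was 1576, or 9.97%, against 278 without it. The neuronal score was -0.23, -0.27, -0.36 and -0.06 in oxaliplatin libraries, against -0.08 to 0.09 in vehicle libraries. Only oxaliplatin replicate 4 lay within the vehicle range. The covariate and the drug group can therefore hardly be told apart here, and the cause was not tested.

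**Figure D3:**
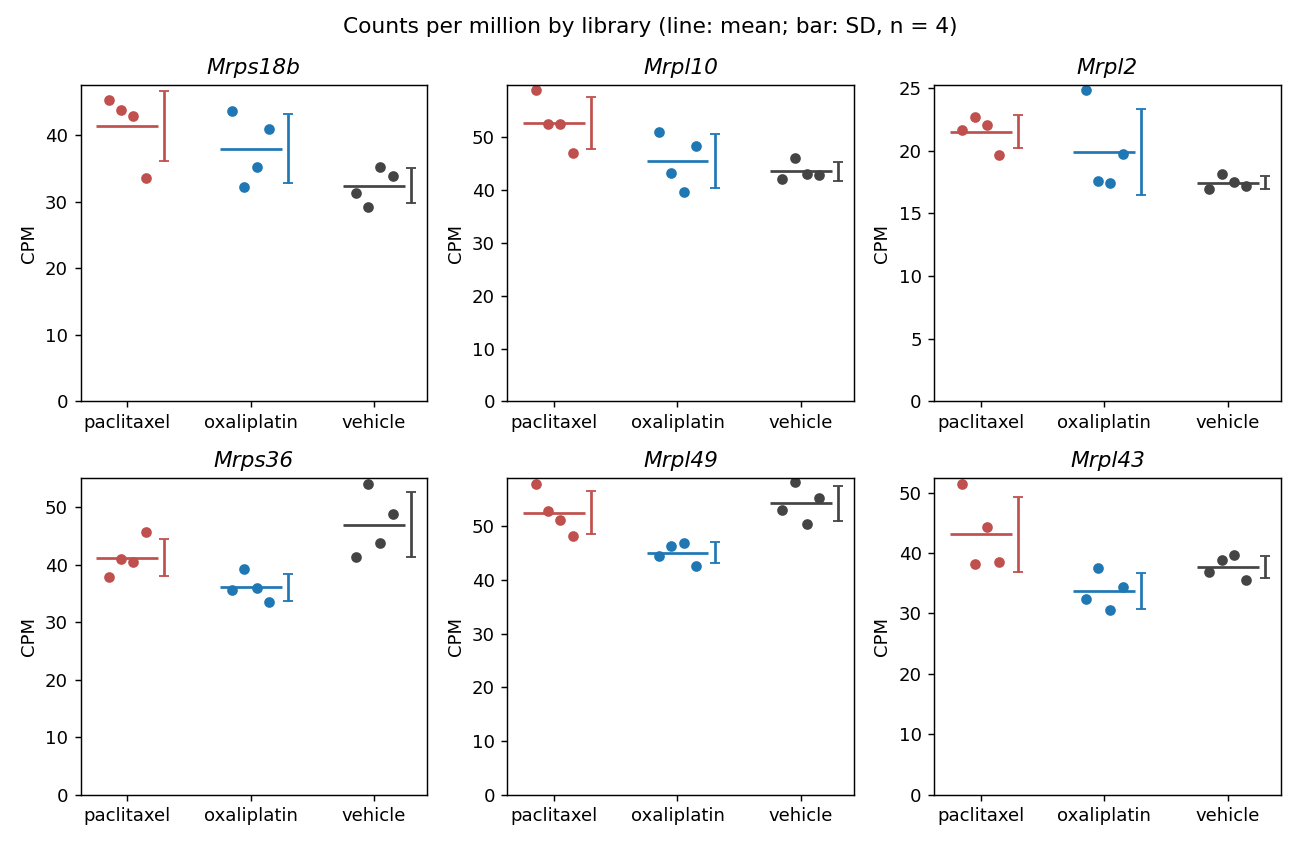
CPM of 6 members by library, with the group mean (line) and SD (bar, n = 4), on axes that start at 0. Mrps18b, Mrpl10 and Mrpl2 average higher in paclitaxel than in vehicle libraries, Mrps36 and Mrpl49 lower in oxaliplatin than in vehicle libraries, and Mrpl43 lower in oxaliplatin than in paclitaxel libraries.

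Set directly against each other, the drug groups differed in 1 member. In oxaliplatin against paclitaxel, Mrpl43 fell, against a background of 4.71% of all genes called lower and 11.3% called in either direction. Mrpl43 (gene ID 309440), a mitochondria-specific large-subunit protein, had 32.5, 37.6, 30.6 and 34.4 CPM in oxaliplatin libraries, against 51.3, 38.1, 44.3 and 38.5 CPM in paclitaxel libraries. The groups did not overlap, though the nearest pair was 37.6 CPM in oxaliplatin and 38.1 CPM in paclitaxel. Vehicle libraries had 36.9, 38.8, 39.7 and 35.5 CPM. DESeq2 called 4 members and limma voom 7, all lower in oxaliplatin and Mrpl43 among them. The tools called 13.8% and 29.8% of all genes in either direction, a larger share than of the members. Without paclitaxel replicate 4, edgeR called 6 members, against 21.7% of all genes.

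The log2 fold change of Mrpl43 was -0.35 ± 0.10 with an adjusted p of 0.0415 (edgeR). The call was lost, among other settings, without paclitaxel replicate 1, 2 or 3 or oxaliplatin replicate 1 or 3, in the fits on FPKM, with library size alone as scaling, with only the 2 groups in the fit and with the neuronal covariate, and the adjusted p ran from 0.0107 to 0.932 over 19 alternative settings. Its estimated counts were not whole in 11 of 12 libraries.

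The rest of the family leaned the same way under TMM scaling: 49 of 75 had a log2 fold change below 0, where 49.4% of all genes tested did, and the median was -0.07 against 0.00 over all genes; scaled by library size alone the median was 0.01 against 0.08 over all genes. The range was -0.35 to 0.23, so all 75 again lay between -0.4 and 0.4, as did 79.8% of all genes tested, and 9 members had an unadjusted p under 0.05, against 29.4% of all genes tested. By p-value, after Mrpl43 came Mrpl41 at -0.29 ± 0.10 with an adjusted p of 0.0639, Mrpl49 at -0.22 ± 0.08 with 0.0768 and Mrpl44 at -0.24 ± 0.08 with 0.0858.

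Mrpl17, the most abundant member, had 136.9, 121.8, 107.6 and 119.8 CPM in oxaliplatin libraries, against 152.6, 139.3, 139.7 and 128.7 CPM in paclitaxel libraries. The groups overlapped through oxaliplatin replicate 1 and paclitaxel replicate 4. Its log2 fold change was -0.20 ± 0.09 with an adjusted p of 0.136. Mrpl28 and Mrpl10 had -0.22 and -0.21 with adjusted p of 0.141 and 0.142. Libraries did not overlap for 4 members, all lower in oxaliplatin, against 6.1% of all genes tested in that direction: Mrpl43, Mrpl44, Mrpl49 and Mrpl3, the last named after its values were seen, at -0.15 ± 0.07 with an adjusted p of 0.154.

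On the higher side in oxaliplatin against paclitaxel, the 6 smallest p-values belonged to members with log2 fold changes of 0.23 for Mrps6, 0.22 for Mrps10, 0.19 for Mrpl23, 0.14 for Mrpl35, 0.12 for Mrps21 and 0.11 for Mrps22, and 0 of these passed the test in edgeR, DESeq2 or limma voom. The 95% interval lay inside -0.5 to 0.5 for 72 of the 75 genes. Since the 3 comparisons share libraries, the values of 1 gene in them are not independent of each other.

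**Figure D4:**
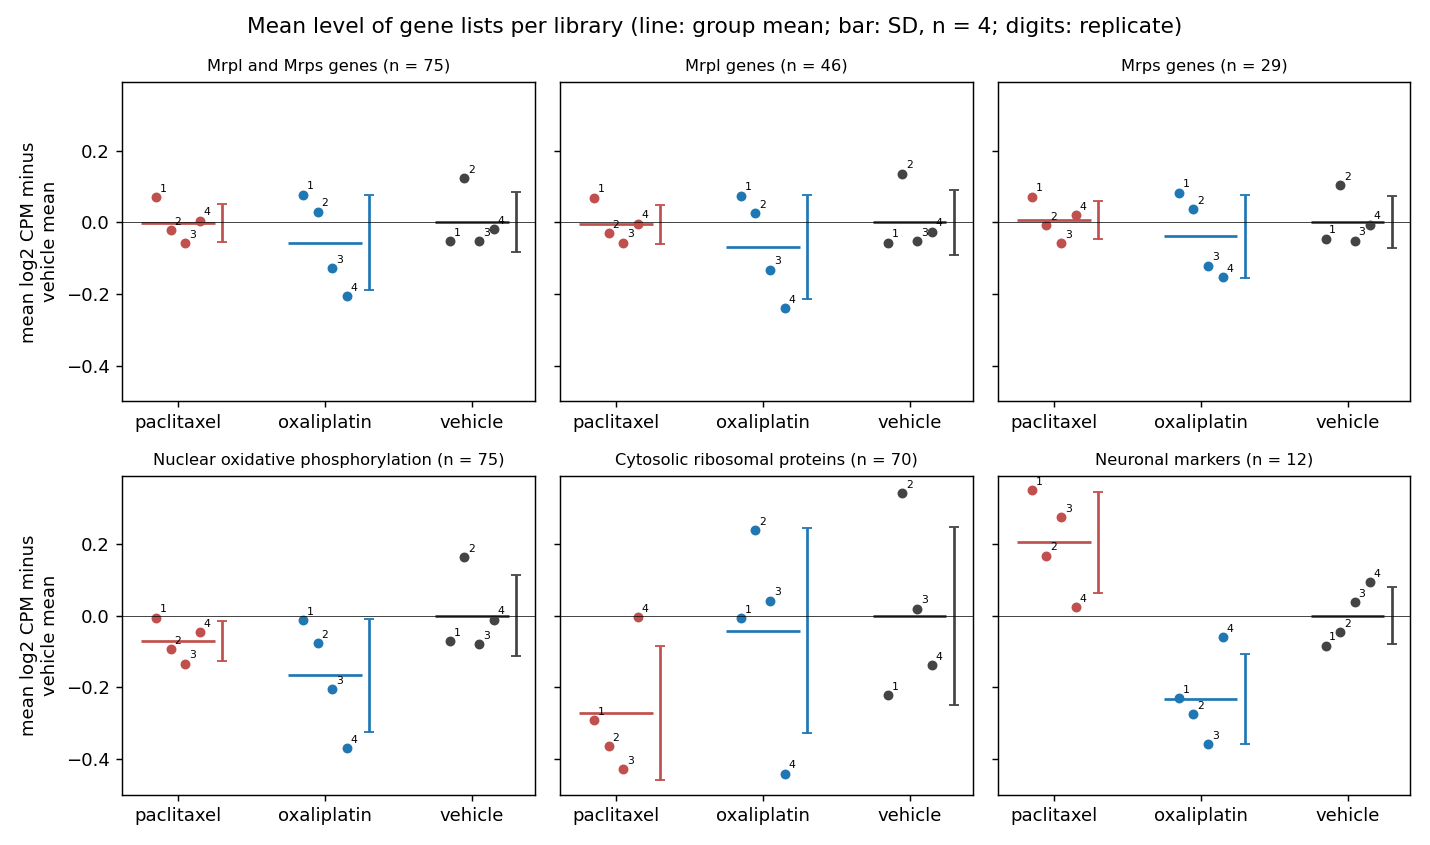
Mean log2 CPM of the genes of a list minus the vehicle mean, per library (points, digits give the replicate), with group mean (line) and SD (bar, n = 4). The mitoribosome genes stay between -0.21 and 0.12. Nuclear oxidative phosphorylation genes run from -0.37 to 0.16, cytosolic ribosomal protein genes from -0.44 to 0.34 and neuronal markers from -0.36 to 0.35. Some lists not drawn vary less than the mitoribosome genes, such as mitoribosome assembly (-0.11 to 0.10), mitochondrial translation factors (-0.11 to 0.09) and mitochondrial aminoacyl-tRNA synthetases (-0.09 to 0.07).

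The family was set beside other lists of the same pathway and of the cytosolic ribosome, by counts and medians. The 70 tested genes of cytosolic ribosomal proteins had a median log2 fold change of -0.26 in paclitaxel against vehicle, with 69 of 70 below 0. Of these 70, 0 were called, against 0.12% of all genes, and 11 had an unadjusted p under 0.05, against 17.1% (edgeR). In oxaliplatin against vehicle the median was -0.01, with 38 of 70 below 0. The score of the cytosolic list was -0.29, -0.36, -0.43 and -0.01 in paclitaxel libraries, -0.01, 0.24, 0.04 and -0.44 in oxaliplatin libraries and -0.22, 0.34, 0.02 and -0.14 in vehicle libraries, a wider spread than that of the mitoribosome genes in each group. The difference between the 2 ribosomes was not tested.

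Nuclear genes of oxidative phosphorylation, many of whose products join subunits made by the mitoribosome, had a median of -0.06 in paclitaxel against vehicle. There 47 of 75 lay below 0, and 0 were called, against 0.12% of all genes. In oxaliplatin against vehicle the median was -0.16, with 68 of 75 below 0. An unadjusted p under 0.05 was reached by 10 and 17 of the 75 genes in these comparisons (edgeR), against 17.1% and 17.2% of all genes. Of the 75, 2 fell in oxaliplatin against vehicle, or 2.67% against 1.76% of all genes called: Uqcrfs1, the iron-sulfur subunit of complex III, at -0.31 ± 0.06 with an adjusted p of 0.0299, and Ndufs1, the largest subunit of complex I, at -0.36 ± 0.08 with 0.0353. The score of this list was lowest in oxaliplatin replicate 4, at -0.37, and highest in vehicle replicate 2, at 0.16, the same libraries as for the mitoribosome genes. This was not particular to mitochondrial genes. The same libraries were lowest and highest for the cytosolic list, at -0.44 and 0.34. They were so too for 607 other genes of 492 to 809 bases, at -0.24 and 0.15.

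Of mitoribosome proteins under other symbols, 5 were tested and 0 called in edgeR. An unadjusted p under 0.05 was reached by 2, 0 and 1 in paclitaxel against vehicle, oxaliplatin against vehicle and oxaliplatin against paclitaxel. Over all genes tested the shares were 17.1%, 17.2% and 29.4%, and the shares of genes called were 0.12%, 1.76% and 11.3%. Chchd1 and Ptcd3, both of the small subunit, had -0.36 ± 0.14 and -0.26 ± 0.10 in paclitaxel against vehicle, with adjusted p of 0.252 and 0.249. Of 21 genes for mitoribosome assembly and rRNA modification, 13 lay above 0 in paclitaxel and 15 below 0 in oxaliplatin against vehicle. Their medians were 0.06 and -0.06. Of the 21, 0 were called in edgeR, against 0.12% and 1.76% of all genes. In each comparison 1 of them had an unadjusted p under 0.05, against 17.1% and 17.2%. Nsun4, a methyltransferase of the small-subunit rRNA, had -0.36 ± 0.10 in oxaliplatin against vehicle with an adjusted p of 0.0863.

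The 13 translation factors had medians of 0.03 and -0.04 in paclitaxel and oxaliplatin against vehicle, with 7 and 3 above 0. Of the 13, 0 were called, against 0.12% and 1.76% of all genes. An unadjusted p under 0.05 was reached by 1 and 0 of them (edgeR), against 17.1% and 17.2%. Tufm, the elongation factor that brings charged tRNAs to the ribosome, had 0.30 ± 0.11 in paclitaxel against vehicle with an adjusted p of 0.245. The 20 genes of mitochondrial aminoacyl-tRNA synthetases and their partners had medians of -0.04 and -0.09, with 9 and 6 above 0. Of the 20, 0 were called, against 0.12% and 1.76% of all genes. An unadjusted p under 0.05 was reached by 5 and 2 of them (edgeR), against 17.1% and 17.2%. Rars2, which charges the arginine tRNA, had -0.53 ± 0.15 in paclitaxel against vehicle with an adjusted p of 0.203.

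Among 13 genes for transcription and upkeep of the mitochondrial genome, 5 lay above 0 in paclitaxel and 6 in oxaliplatin against vehicle. Their medians were -0.12 and -0.01. An unadjusted p under 0.05 was reached by 6 and 2 of the 13 (edgeR), against 17.1% and 17.2% of all genes. Of the 13, 0 were called, against 0.12% and 1.76%. Top1mt, the mitochondrial topoisomerase I, had 0.46 ± 0.13 in paclitaxel and 0.42 ± 0.13 in oxaliplatin against vehicle, with adjusted p of 0.203 and 0.116. Of 10 regulators of mitochondrial biogenesis, 5 lay above 0 in each comparison with vehicle. There 0 were called, against 0.12% and 1.76% of all genes, and 0 had an unadjusted p under 0.05 (edgeR), against 17.1% and 17.2%. Esrra, an orphan nuclear receptor that drives genes of oxidative phosphorylation, fell in oxaliplatin against paclitaxel, at -0.40 ± 0.11 with an adjusted p of 0.0360, as 1 of the 10 where 11.3% of all genes were called.

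Fold changes within the mitoribosome family were also set out by transcript length. The family is short, with a median of 1016 bases against 2547 for all genes tested. Its 25 shortest transcripts, of 492 to 809 bases, had a median log2 fold change of -0.10 in paclitaxel and -0.12 in oxaliplatin against vehicle, with 6 and 5 of the 25 above 0. The 607 other genes of that length had medians of -0.12 and -0.08.

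The 25 members of 828 to 1169 bases had medians of 0.08 in paclitaxel, with 20 above 0, and -0.04 in oxaliplatin against vehicle, where 1010 other genes of that length had -0.07 and -0.04. The 25 longest, of 1175 to 2426 bases, had 0.01 and -0.04, and 5538 other genes of that length had -0.0006 and 0.006. The score of the 25 shortest was 0.17 in vehicle replicate 2 and -0.34 in oxaliplatin replicate 4, and the part of length, or of what differs with it, in the values above was not tested.

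**Figure D5:**
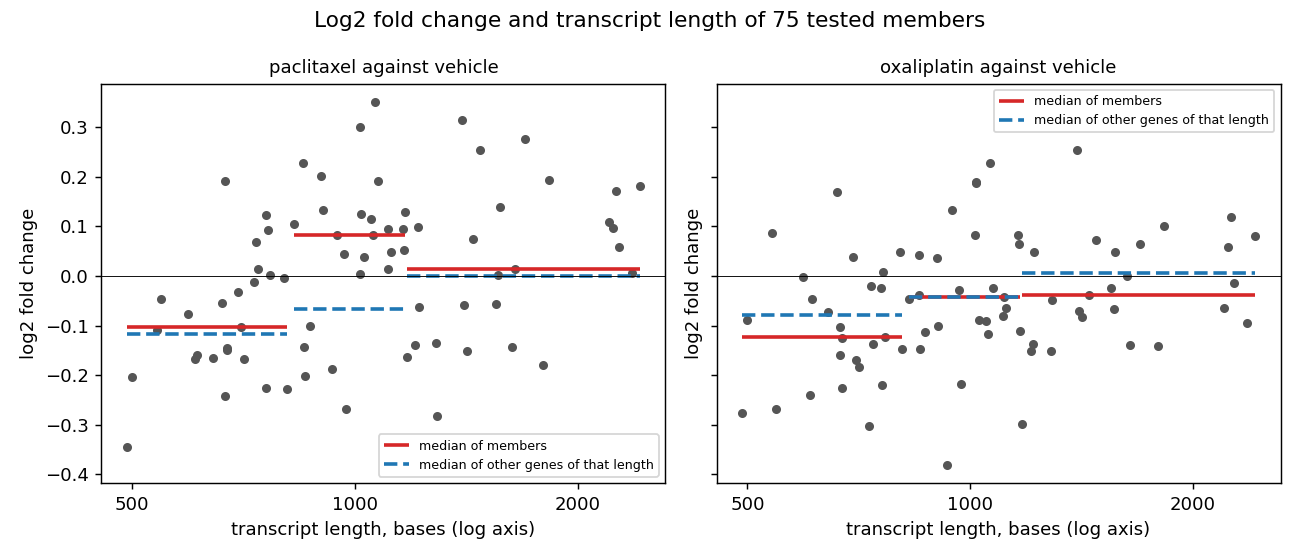
Log2 fold change of the 75 tested members against transcript length on a log axis, for paclitaxel and oxaliplatin against vehicle, with the median of 25 members at a time (red) and of other genes of that length (blue, dashed). The shortest members lie lowest, with medians of -0.10 and -0.12, near those of other genes of that length.

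The 3 genes with lower-case symbols gave values in the same range as the family. In paclitaxel against vehicle mrpl9, mrpl11 and mrpl24 had 0.02, -0.09 and 0.04, and in oxaliplatin against vehicle -0.05, -0.10 and -0.09. Of the 3, 0 were called, against 0.12% and 1.76% of all genes. An unadjusted p under 0.05 was reached by 0 in either comparison (edgeR), against 17.1% and 17.2%.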

How the data were processed

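Gene tables of 12 libraries of rat dorsal root ganglion RNA were used, 4 each of paclitaxel, oxaliplatin and vehicle, with groups and replicate numbers from the sample titles. Each deposited table gives, per the file headers, an estimated count (expected_count) and FPKM for each gene. CASAVA 1.4 and Bowtie2 were used per the submitters' processing notes; the program that made the estimated counts, the genome build and any use of strand are not given in the sources used here. Reads of overlapping genes therefore could not be told apart. The FPKM values made by the authors were used for levels between genes, on their own scale.

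After rounding to whole numbers, the estimated counts were tested with edgeR 4.0.16 (R 4.3.3): filterByExpr, which set aside 4343 genes and kept 15809, TMM scaling, robust quasi-likelihood fit of all 12 libraries with group as the factor, and Benjamini-Hochberg adjustment over all genes tested with a threshold of 0.05. The 12 libraries left 9 residual degrees of freedom. Scores used log2 CPM with a prior count of 2. Alternatives were other scaling, no filter, DESeq2 1.42.0, limma voom with quality weights and limma-trend (limma 3.58.1) on log2(FPKM + 1) or log2(FPKM + 0.1) (the first also for genes of mean FPKM of at least 1), fits of 2 groups, a neuronal marker score as covariate, a replicate block, and each library left out. The code was tested on simulated data.

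Depth was even between libraries. All 76 gene IDs were found in the RefSeq table, 75 under the same symbol. Named in the text were, in each comparison, members that passed the test and the 6 with the smallest p in each direction, the 5 highest and 5 lowest by FPKM, members whose libraries did not overlap vehicle at an unadjusted p under 0.05, and any set aside; exceptions named for their values are marked, and further members are named only for a promoter feature, a neighbour, a partner or a structural placement. From the other lists, genes that passed or else those of smallest p were eligible. The members and lists were chosen with earlier results of these data known. Mitochondrially encoded genes, and the marker Lep, which the filter set aside, were not analysed here.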

Additional observations from a re-analysis of the deposited data

Results flagged for a closer look

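Of 111 groups of 4 libraries looked at for named members and sums, 6 held 1 library far from the other 3 by Dixon's criterion, which chance passes in about 1 of 20 groups. For Mrpl33, paclitaxel replicate 4 had 32.1 CPM, above the others of its group. For Mrpl44, oxaliplatin replicate 3 had 18.2 CPM, below the others. Vehicle replicate 2 stood above the other vehicle libraries with 31.2 CPM of Mrps16, 44.9 CPM of Mrps21 and a summed level of 3053 FPKM over the 76 genes. Oxaliplatin replicate 4 had a ratio of summed Mrps to Mrpl FPKM of 0.557, above the other oxaliplatin libraries.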

How the results depend on the processing

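The count of members called depended on tool and library, as did that of all genes. In paclitaxel against vehicle it was 0, but 3 with limma voom (12% of all genes) and 0 to 4 with a library left out, 4 without paclitaxel replicate 4 (10.2%). In oxaliplatin against vehicle it was 0, but 3 with DESeq2 (4.5%) and 7 with the neuronal score as a covariate (9.97%). With each library left out it was 0, where 0.307 to 1.52% of all genes were called. In oxaliplatin against paclitaxel it was 1 (11.3%), but 4 with DESeq2 (13.8%) and 7 with limma voom (29.8%). It was 0 with library size alone (11.3%), with each of the 3 fits on FPKM (10.9 to 11.6%) and with only the 2 groups fitted (6.53%). With the neuronal covariate it was also 0, where 3 of all genes (0.019%) were called. With a library left out it was 0 to 6. It was 0 without paclitaxel replicate 1, 2 or 3 (5.07%, 4.25% and 3.77% of all genes) or oxaliplatin replicate 3 (3.59%). It was 1 without oxaliplatin replicate 1 (Mrpl41 in place of Mrpl43, 7.73%) and 6 without paclitaxel replicate 4 (21.7%).

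Same-numbered libraries did not deviate together (correlations from -0.232 to 0.157), so the numbers were not taken as pairs. With the replicate block, 0 members were called in each comparison (Mrpl43 had an adjusted p of 0.0813 in oxaliplatin against paclitaxel, by edgeR), and 15, 72 and 986 of all genes in paclitaxel against vehicle, oxaliplatin against vehicle and oxaliplatin against paclitaxel.

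The ratio of Mrps to Mrpl sums was 0.557, 0.563 and 0.548 in paclitaxel, oxaliplatin and vehicle libraries from CPM, and 0.422, 0.432 and 0.419 with members placed by structure, an alternative added after seeing the data. In oxaliplatin against paclitaxel, the neuronal covariate turned the sign of 8 named members, to 0.00919 for Mrpl17, 0.140 for Mrpl28, 0.0130 for Mrpl44, -0.201 for Mrpl35, -0.292 for Mrps10, -0.118 for Mrps21, -0.105 for Mrps22 and -0.321 for Mrps6. The neuronal score ran from 0.02 to 0.35 in paclitaxel and from -0.36 to -0.06 in oxaliplatin libraries, without overlap. In this comparison the covariate and the drug group therefore cannot be told apart, and the cause was not tested. Of 684 values of named members under the alternatives, 640 kept their direction and side of the threshold, 24 passed it newly, 12 (all Mrpl43) no longer did and 8 changed sign. The median fold change moved by less than the SD of the member score between vehicle libraries (0.0838) in each alternative. That SD is larger than the size of each main median, so a smaller move can turn the sign. In paclitaxel against vehicle the median was -0.006 without paclitaxel replicate 1 and -0.02 without vehicle replicate 3. It was -0.04 there with library size alone and in the fits on FPKM. In oxaliplatin against paclitaxel the median went from -0.07 to 0.01 with library size alone and to 0.008 in the fits on FPKM. With 4 libraries a group, the median SE of a log2 fold change of members was 0.11.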
